A study of Mus musculus with 4 samples.

Results

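The clustered histone genes are the mouse genes whose symbols start with Hist1h, Hist2h, Hist3h or Hist4h. The deposited gene list of 27998 genes held 69 such symbols, and 62 of them had at least 20 UMIs over all barcodes and were taken as members. The 7 left out ranged from 0 (Hist1h2ba) to 17 UMIs (Hist2h2aa2). By symbol, 5 members belong to the linker histone family H1, 17 to H2A, 16 to H2B, 12 to H3 and 12 to H4, although GENCODE lists 2 of the matched members as other than protein-coding, Hist1h2al as a processed pseudogene and Hist2h2bb under ENSMUSG00000050936 as a lincRNA. By cluster, 49 carry the Hist1 prefix, 10 Hist2, 2 Hist3 and 1 Hist4. The symbol Hist2h2bb occurs under 2 identifiers, which were kept apart although their gene models overlap on the same strand.

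Single-cell RNA-seq libraries had been made from CD45+ cells of the nasal mucosa of C57BL/6 mice aged 8 weeks, and each of the 4 groups gave 1 library. Vehicle and Ribavirin stand for mice without allergen, Vehicle-OVA and Ribavirin-OVA for mice given ovalbumin (OVA), the protein used to provoke allergic rhinitis, and ribavirin is an antiviral drug. The labels state magnetic enrichment of the CD45+ cells and the series text states flow sorting, and neither the number of mice in a library nor the doses and times of OVA and ribavirin are given in the labels. No replicate exists within a group, so the tests over the 4 libraries measure whether a difference between cell states was larger than its spread over libraries that also differed in treatment.

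Each turn of the cell cycle doubles the DNA, and most clustered histone genes are transcribed in S phase to pack the new copy. Their mRNAs are known to end in a stem-loop bound by Slbp in place of a poly(A) tail, whereas some of these genes can also give polyadenylated mRNA outside the cell cycle. The reads of these libraries were primed with oligo-dT, which captures poly-A RNA, so the values are levels of primed molecules and not of all histone mRNA.

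The sequence features that separate these routes were read from the longest annotated transcript of each gene in GENCODE M21 (build GRCm38), which matched 60 of the 62 members. A stem-loop was searched as 16 bases with a perfect stem of 6 base pairs starting GG and a loop of 4 bases starting with T, and it was found in 40 of the 60 members against 1.33% of 58736 other protein-coding transcripts. A poly(A) signal, AATAAA or ATTAAA in the last 40 bases, was found in 14 members, 12 of which also held the stem-loop, against 48.7% of the other transcripts. A missing motif says only that these letters are not in the annotated model. The stem-loops of genes described below are shown with the 16 bases in capitals. The first 4 are from genes with over 50% of their UMIs outside cycling cells and the last 4 from genes with under 10% there. Of the UMIs of all genes 89.3% lay outside, and Hist1h1c, 1 of the first 4, was still higher in cycling cells, as given below.
Hist1h1c: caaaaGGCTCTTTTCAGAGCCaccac, at chr13:23739507-23739532, plus strand.
Hist3h2a: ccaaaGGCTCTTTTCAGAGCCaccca, at chr11:58955167-58955192, plus strand.
Hist4h4: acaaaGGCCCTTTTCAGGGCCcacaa, at chr6:136803993-136804018, minus strand.
Hist2h3c2: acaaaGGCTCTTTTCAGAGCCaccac, at chr3:96238480-96238505, minus strand.
Hist1h3b: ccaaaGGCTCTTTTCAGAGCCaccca, at chr13:23752815-23752840, plus strand.
Hist1h3c: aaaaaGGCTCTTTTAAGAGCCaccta, at chr13:23745042-23745067, minus strand.
Hist1h2ap: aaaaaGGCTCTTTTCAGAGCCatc, at chr13:21833026-21833049, minus strand.
Hist1h2ae: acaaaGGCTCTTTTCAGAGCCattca, at chr13:23570663-23570688, minus strand.
These genes were picked for having a stem-loop. Of the 19 matched members with over 50% of their UMIs outside cycling cells 14 held one and 5 did not, and of the other 41 it was found in 26. Poly(A) signals of members are shown next, with the signal in capitals. The first 4 belong to genes with over 50% of their UMIs outside cycling cells. The last belongs to Hist1h2ae, the lowest of the 3 signal-bearing members below that line.
Hist1h1c: gcttctAATAAAaagcgtttagttttcatt, at chr13:23740336-23740365, plus strand.
Hist3h2a: atgcccAATAAAataagagtacgtgtataa, at chr11:58956791-58956820, plus strand.
Hist2h2be: attattAATAAAgttaccgattagtttc, at chr3:96223711-96223738, plus strand.
Hist4h4: agatgaAATAAAtac, at chr6:136801553-136801567, minus strand.
Hist1h2ae: ttctccAATAAAtgggtcaatttttttcag, at chr13:23570521-23570550, minus strand.

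Counts stood on 91742940 to 171873110 UMIs per library. After filters for genes, UMIs and mitochondrial share, 25727, 17498, 20278 and 8817 cells remained, in the order Vehicle, Vehicle-OVA, Ribavirin, Ribavirin-OVA that every run of 4 values below follows. Ptprc, which encodes CD45, was detected in 86.1 to 90.9% of the cells of a library. A cell was called cycling with at least 3 UMIs of Mki67 plus Top2a, markers of dividing cells, which gave 1141, 444, 842 and 622 cycling cells in the same order. Cycling cells had more UMIs, with a median of 13556 to 20843.5 against 3373 to 4913 in the other cells, so levels are given relative to the summed UMIs of the cell set, as CPM. The call was not scaled to depth, so deep cells reach 3 UMIs more readily than shallow ones. The part of the call in this difference was not tested. Ribosomal protein genes took 19.7 and 16.3% of the UMIs of Vehicle and Ribavirin but 7.73 and 10.5% of those of Vehicle-OVA and Ribavirin-OVA, and between 57 and 174 barcodes were shared by a pair of libraries, at most 0.909% of either.

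The first question was which members are seen outside cycling cells. Of all member UMIs, 142753 lay in other cells and 190389 in cycling cells, a share outside of 42.9% (exact Clopper-Pearson 95% interval 42.7 to 43.0, counting error only) against 89.3% for the UMIs of all genes. By library the share outside was 39.4% in Vehicle, 60.0% in Vehicle-OVA, 44.8% in Ribavirin and 37.0% in Ribavirin-OVA, so Vehicle-OVA, which held the fewest cycling cells, stood highest. Cycling cells were 4.44, 2.54, 4.15 and 7.05% of the cells kept, and the share outside of any gene depends on this too. The members ran over nearly the whole scale: 19 had over 50% of their UMIs outside cycling cells, 29 had 10 to 50% and 14 had under 10%, with a median of 32.0%. The share of all genes past this 50% line was not counted. A member over 50% can lie below the 89.3% of all UMIs and still be higher in cycling cells. Hist1h4c, at 52.3% outside, had a log2 fold change of 3.02 in cycling over other cells. With cycling cells set at 1 UMI of Mki67 plus Top2a or more, the share outside was 35.3%.

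A few genes carried most of the signal outside cycling cells. The linker histone gene Hist1h1c gave 33957 UMIs there, the H2B gene Hist1h2bc 29885 and the linker gene Hist1h1e 13571, together 54.2% of the member UMIs outside. The next 7 were the H2A gene Hist3h2a, the H4 genes Hist1h4d and Hist1h4i, the H2B genes Hist2h2be, Hist1h2be and Hist3h2ba and the H2A gene Hist2h2ac, and the 10 genes held 84.0%. Of these 10, 4 were also among the 10 members with most UMIs in cycling cells. Gene models bear on some of these values: Hist1h2be overlaps Hist1h1e over 496 bases on the same strand, Hist3h2a lies wholly within the model of Trim17 on the same strand, and Hist2h3c1 lies within that of Gm20634, so that reads there cannot be assigned with certainty. The same holds for Hist2h2bb, where all 381 bases of ENSMUSG00000105827 lie within the model of ENSMUSG00000050936 on the same strand. Histone genes of 1 family are also close to identical in their coding sequence, and how reads were split between copies was not tested.

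**Figure D1:**
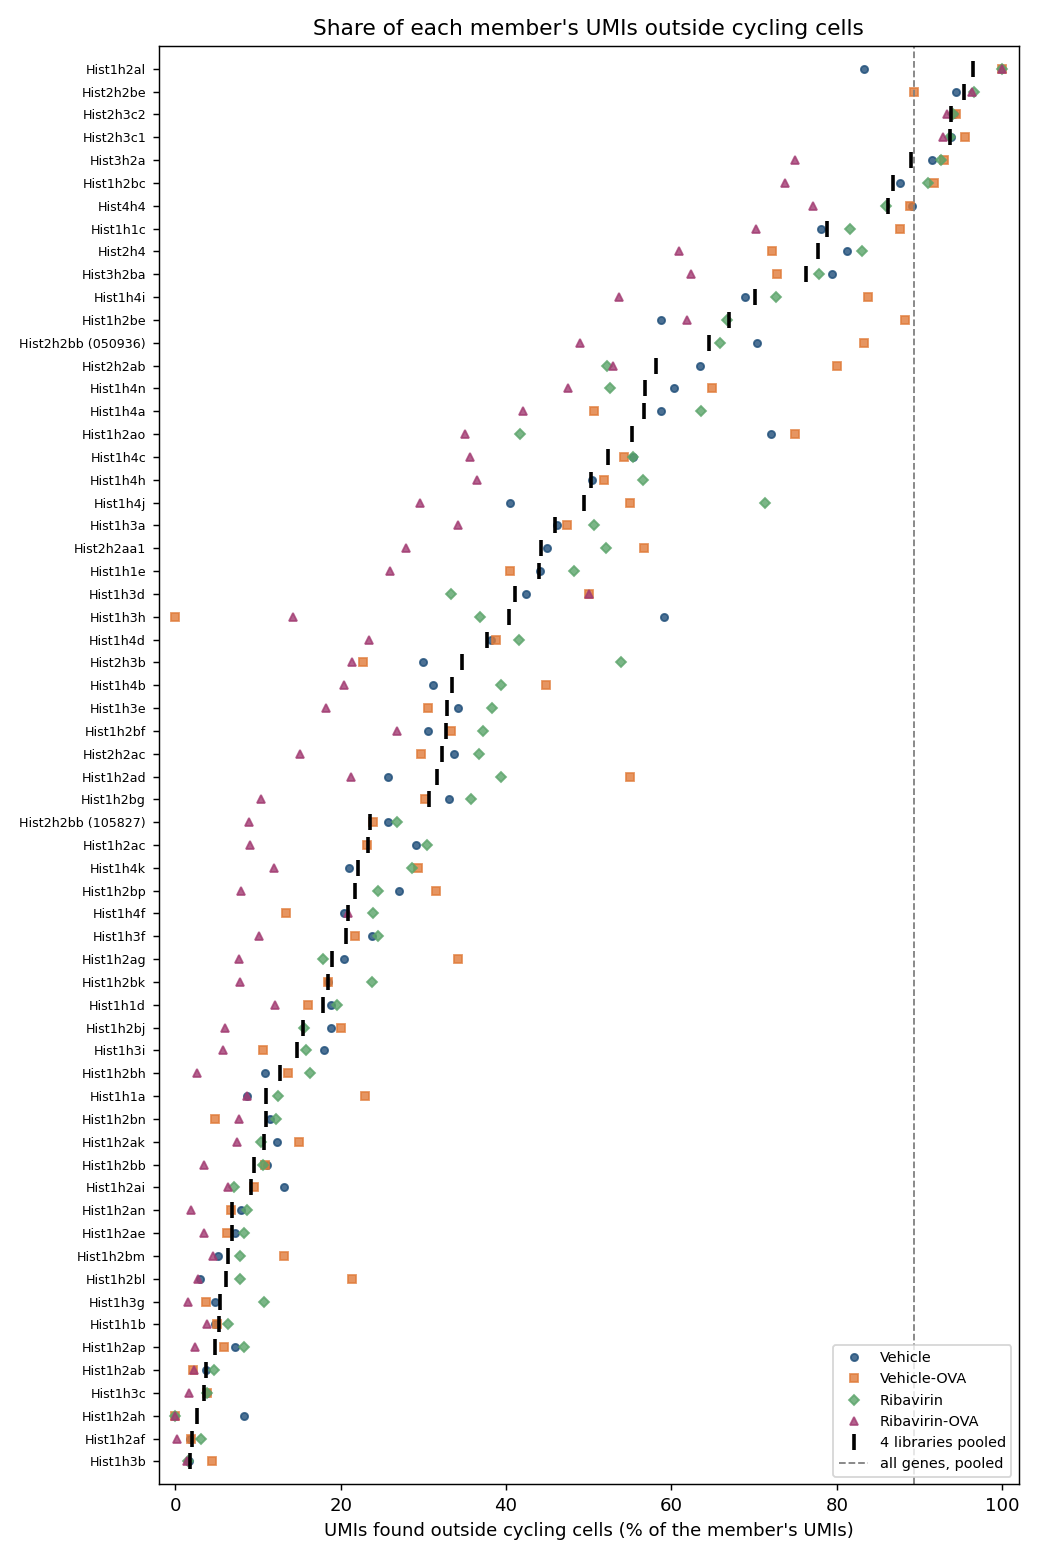
Share of each member's UMIs found outside cycling cells, in percent on the horizontal axis, with 1 row per member ordered by the pooled share (tick), points for the 4 libraries and a dashed line at the share of all UMIs. The members run from 1.76% (Hist1h3b) to 96.4% (Hist1h2al, annotated as a processed pseudogene, 28 UMIs).

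At the top of the scale among the 58 members with at least 100 UMIs, stood Hist2h2be with 95.4% of its UMIs outside cycling cells (95% interval 94.8 to 96.0), followed by the H3 genes Hist2h3c2 at 93.9% and Hist2h3c1 at 93.8%, Hist3h2a at 89.0% and Hist1h2bc at 86.8%. Their order was not fixed across libraries: Hist2h2be ranged from 89.3% in Vehicle-OVA to 96.6% in Ribavirin, and Hist3h2a from 75.0% in Ribavirin-OVA to 93.0% in Vehicle-OVA. At the bottom, the H3 gene Hist1h3b had 1.76% outside (1.10 to 2.65), the H2A gene Hist1h2af 2.00%, the H3 gene Hist1h3c 3.44%, and the H2A genes Hist1h2ab and Hist1h2ap 3.72 and 4.78%. Hist1h3b was at most 4.49% in any library and Hist1h2af at most 3.06%. Both ends of the scale were picked by this share, so the distance between them is no test. The members nearest 50% were the H4 genes Hist1h4h at 50.3% and Hist1h4j at 49.4%.

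Families differed in where their members fell. Of the H4 genes 7 of 12 had over 50% of their UMIs outside cycling cells, with a family median of 51.3%, compared with 1 of 5 H1 genes (median 17.9%), 4 of 17 H2A genes (18.9%), 5 of 16 H2B genes (22.6%) and 2 of 12 H3 genes (33.8%). By cluster the count was 10 of 49 for Hist1, 6 of 10 for Hist2, 2 of 2 for Hist3 and 1 of 1 for Hist4. Summed levels gave another view of the families. H1 genes were 119, 79.0, 121 and 121 CPM in other cells of Vehicle, Vehicle-OVA, Ribavirin and Ribavirin-OVA, and H2B genes were 86.2, 72.7, 115 and 110 CPM, ahead of H4 (31.6 to 59.5), H2A (27.7 to 50.1) and H3 (6.64 to 17.5). In cycling cells H1 led in Vehicle and Ribavirin at 1883 and 1837 CPM, whereas H2A was above H1 in Ribavirin-OVA (950 against 672 CPM) and close to it in Vehicle-OVA (557 against 552 CPM).

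The share outside cycling cells went with the annotated transcript end. The 14 members with a poly(A) signal had a median of 73.2% outside and 11 of them lay over 50%, whereas the 46 without one had a median of 22.7% and 8 of 46 over 50%. The signal-bearing members gave 50.5% of the member UMIs outside cycling cells and 21.9% of those in cycling cells. The groups overlapped: Hist1h2ae, an H2A gene with both a signal and a stem-loop, had 6.83% outside, Hist1h2bp had 21.7% and Hist1h4j 49.4%, and Hist2h3c2 and Hist1h2bc, without a signal in the annotated transcript, were among the top 5. The models with a signal were also longer (median 1167 bases against 486.5), and members whose model runs over 100 bases past the stem-loop had a median of 52.3% outside (21 genes) against 20.9% for those ending within 100 bases (19 genes). Genes are not independent replicates, and these are descriptions with no test.

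Promoters were taken from RefSeq (GRCm38.p6, 250 bases before to 50 after the start), where 53 members matched. The 3 motifs known from histone promoters were searched on both strands, and the octamer ATTTGCAT was in 10 members (1.75% of 27025 promoters), CCAAT in 45 (37.9%) and TATAAA in 32 (14.2%). Among the 14 matched members with over 50% of their UMIs outside cycling cells these were in 1, 10 and 5, and among the other 39 in 9, 35 and 27. A linker histone gene from each end of the scale is shown with the motifs in capitals, first Hist1h1b, with 5.31% of UMIs outside, and then Hist1h1c, with 78.8%.
Hist1h1b: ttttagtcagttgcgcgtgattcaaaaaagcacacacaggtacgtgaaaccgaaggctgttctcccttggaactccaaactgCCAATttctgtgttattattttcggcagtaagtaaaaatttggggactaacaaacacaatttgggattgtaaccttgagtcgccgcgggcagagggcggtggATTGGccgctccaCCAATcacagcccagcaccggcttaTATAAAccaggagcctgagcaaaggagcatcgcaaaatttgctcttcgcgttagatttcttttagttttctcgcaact, at chr13:21780576-21780875, minus strand.
Hist1h1c: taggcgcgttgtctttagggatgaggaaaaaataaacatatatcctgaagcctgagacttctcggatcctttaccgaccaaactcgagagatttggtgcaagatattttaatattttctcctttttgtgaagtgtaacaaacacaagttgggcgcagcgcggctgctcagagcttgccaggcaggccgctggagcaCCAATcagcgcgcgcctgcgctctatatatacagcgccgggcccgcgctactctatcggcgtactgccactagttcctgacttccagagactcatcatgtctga, at chr13:23738557-23738856, plus strand.
Both hold CCAAT and only the first holds TATAAA. A letter match is not a bound site.

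Set against other cells, nearly all members were higher in cycling cells. With UMIs summed per library and state and the library as a block, edgeR's quasi-likelihood test with Benjamini-Hochberg adjustment over 16277 genes found 55 of 61 members tested higher, where 23.3% of all genes were higher, and 2 lower, where 25.5% of all genes were lower. The median log2 fold change was 4.38 over the members and -0.09 over all genes. Hist1h2al, with 1 UMI in cycling cells, was too low to be tested.

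The replicative end of the list was led by H2A and H3 genes and the linker gene Hist1h1b. Hist1h1b was at 1135, 267, 1069 and 272 CPM in cycling cells of Vehicle, Vehicle-OVA, Ribavirin and Ribavirin-OVA, against 6.76, 1.21, 6.95 and 2.37 CPM in other cells. It was far above the other cells in every library, with a log2 fold change of 7.30 (SE 0.16, adjusted p = 1.9e-06), and in cycling cells both libraries without OVA stood above both OVA libraries. Hist1h3b was at 27.2, 11.3, 27.4 and 18.5 CPM in cycling cells and at 0.0404 to 0.0577 CPM in other cells, a log2 fold change of 8.77 (SE 0.25, adjusted p = 4.2e-06). Hist1h2af rose by 8.81, Hist1h3c by 7.95, Hist1h2ab by 7.91, Hist1h2ah by 7.2, Hist1h3g by 7.17, Hist1h2ap by 7.13, and Hist1h2ae and Hist1h2an by 6.98 each on the log2 scale, with adjusted p of 0.00082 or less. For Hist1h2ah the other cells held 1 UMI, so its fold is poorly set.

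The H3 genes Hist2h3c1 and Hist2h3c2 of the Hist2 cluster went the other way over all cells. Hist2h3c1 was at 0.633, 1.07, 1.34 and 1.5 CPM in cycling cells against 1.13, 1.91, 1.90 and 4.27 CPM in other cells, lower within each library (log2 fold change -0.95, SE 0.26, adjusted p = 0.023). Hist2h3c2 was at 0.403 to 1.37 CPM against 0.769 to 4.26 CPM, also lower within each library (-0.98, SE 0.27, adjusted p = 0.027). Levels of both were low, and by edgeR Hist2h3c2 no longer passed without any one of the libraries (adjusted p 0.050 to 0.11), nor Hist2h3c1 without Vehicle, Vehicle-OVA or Ribavirin-OVA (0.050 to 0.087). Within the cell classes treated below, Hist2h3c1 could be tested only in macrophages, where it did not pass (-0.52, SE 0.60, adjusted p = 0.67). Hist2h3c2 could be tested in none. Among other cells, Hist2h3c1 was higher in neutrophils, a class with few cycling cells (0.95, SE 0.31, adjusted p = 0.0087). The part of the class mix in these falls was not tested.

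The 4 members that passed in neither direction, Hist1h2bc, Hist3h2a, Hist4h4 and Hist2h2be, each had 86.2% or more of their UMIs outside the cycle. Hist1h2bc was at 67.7, 58.3, 80.8 and 116 CPM in cycling cells and at 56.2, 54.9, 78.8 and 72.2 CPM in other cells, a log2 fold change of 0.25 (SE 0.17, adjusted p = 0.27). Hist3h2a gave -0.06 (SE 0.20, adjusted p = 0.83), with 18.4 to 41.9 CPM against 20.7 to 31.6, and Hist4h4 gave 0.43 (SE 0.19, adjusted p = 0.11). Hist2h2be was at 2.30, 5.60, 3.73 and 4.04 CPM in cycling cells against 4.57, 3.96, 10.0 and 23.3 CPM in other cells, lower in 3 of 4 libraries (-1.18, SE 0.41, adjusted p = 0.052), and without the Vehicle-OVA library it passed (-1.58, adjusted p = 0.0046), as it did by DESeq2 (adjusted p = 0.0091). Cycling and other cells hold different shares of the cell classes, and values within classes are given below. Hist1h1c did pass, at 162, 117, 165 and 203 CPM against 67.4, 70.0, 70.2 and 106 CPM (1.02, SE 0.16, adjusted p = 0.0036), with every library of the cycling cells above every library of the other cells.

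**Figure D2:**
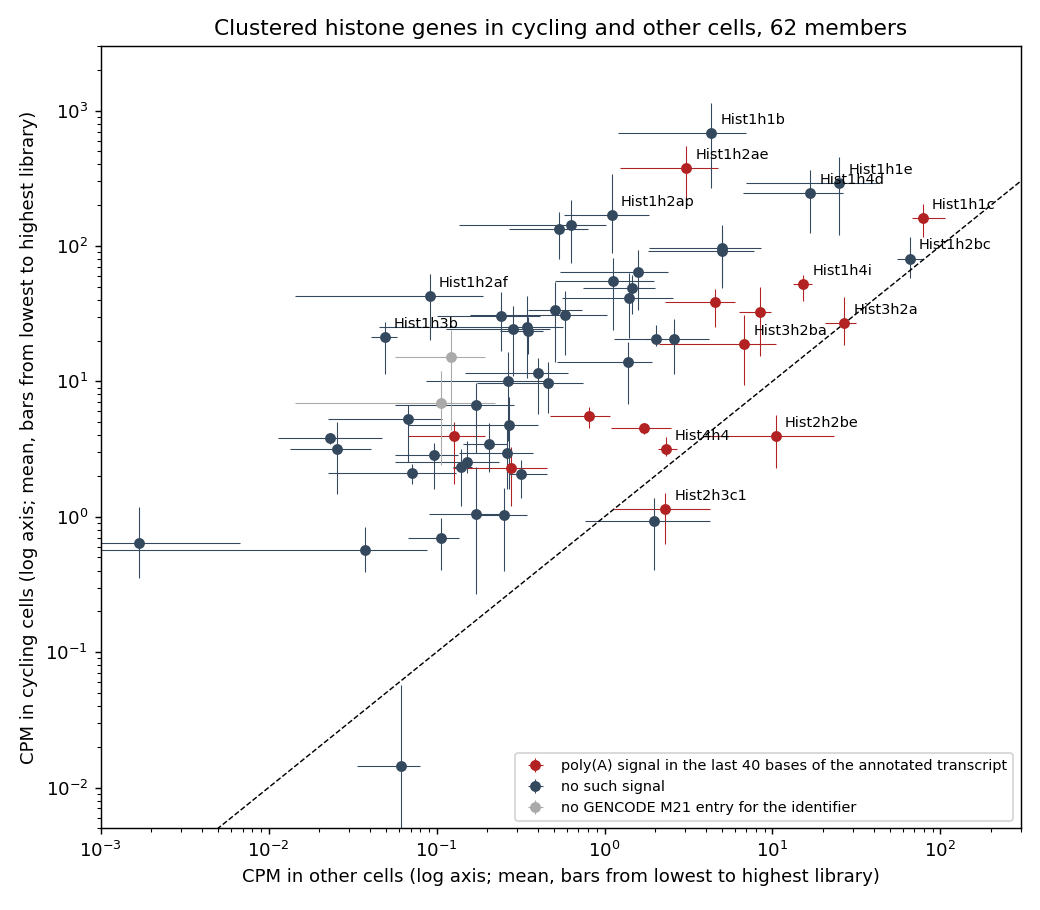
Level of each member in other cells (horizontal axis, CPM, log scale) against its level in cycling cells (vertical axis, CPM, log scale), coloured by poly(A) signal, as means over the 4 libraries with bars from the lowest to the highest library, a bar that reaches the axis edge marking a library at 0. Most members lie far above the line of equal levels, while Hist1h2bc (80.7 CPM in cycling cells against 65.5) and Hist3h2a (26.9 against 26.7) lie near it and Hist2h2be and the Hist2h3c genes below it.

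A stricter set of other cells held those with 0 UMIs of every cycle gene on the lists used here (8781, 8875, 6827 and 2312 cells). The requirement kept shallower cells, with a median of 2481.5 to 3092 UMIs against 3373 to 4913, and more neutrophils, which made up 46.5, 73.0, 55.7 and 47.6% of these cells against 26.6, 56.5, 32.0 and 25.7% of all other cells. Hist1h1c was at 81.6, 74.6, 86.7 and 155 CPM and Hist1h2bc at 86.4, 68.6, 113 and 101 CPM in these cells, both above their level in all other cells in every library. Against them Hist1h1c no longer passed as higher in cycling cells (0.36, edgeR adjusted p = 0.32), and Hist2h2be passed as lower (-1.54, adjusted p = 0.036). Hist1h1b was at 5.77, 0.803, 5.51 and 1.48 CPM, below its level in all other cells in every library. Free RNA in droplets adds UMIs to cells that do not express a gene, and its part in these low levels was not tested.

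Genes that act with the histones are set here against the 23.3% of all genes that were higher and the 25.5% that were lower. The histone chaperone list, proteins that carry and deposit histones, was higher in 11 of 12 genes, among them Asf1b by 4.45 and Chaf1a by 3.55 on the log2 scale, with Daxx lower at -0.42. Of 14 genes for histone gene transcription and mRNA processing 12 were higher, with Zfp473 at 1.88, the stem-loop binding protein gene Slbp at 1.29 and Npat, which encodes the activator of histone gene transcription, at 0.75, while Lsm10 was lower at -0.34. The list of histone variant genes outside the clusters was higher in 6 of 11, including H2afx at 3.64 and Cenpa at 2.43, whereas H3f3a (-0.15) and H3f3b (-0.10) did not pass. The S phase and G2/M lists were higher in 20 of 20 genes each, with medians of 3.50 and 6.41.

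Classes were given to cells from marker UMIs, with 5 markers listed per class. For T cells the 3 CD3 genes were found in the files and for the other classes tested all 5, and each marker found was detected in 36.2 to 100% of the cells of its class. Within the 3 classes that had at least 20 cycling cells in every library the contrast between states held. In T cells 51 of 54 members were higher in cycling cells (25.9% of all genes were), with a median log2 fold change of 5.26. In macrophages 35 of 46 were higher (6.7% of all genes) and 1 lower (4.55%), with a median of 3.19, and in plasma cells 48 of 52 were higher (21.3%), with a median of 3.09. By edgeR 0 members were lower in T cells and in plasma cells, where 20.8 and 20.2% of all genes were, and the count was also 0 at an unadjusted p under 0.05 and by DESeq2.

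Hist1h1b showed how far the classes differ in their level in cells not called cycling. The part of cycling cells missed by the call was not tested. In cycling T cells it was at 2305, 313, 1835 and 432 CPM and in other T cells at 6.55, 1.58, 7.88 and 1.58 CPM, a log2 fold change of 8.33 (SE 0.13). Among plasma cells it was at 761, 300, 679 and 308 CPM when cycling and at 23.1, 10.0, 43.3 and 16.9 CPM when not, a change of 4.41 (SE 0.16), and in macrophages the change was 6.41 (SE 0.12). The largest rises were those of Hist1h3b in T cells and macrophages (9.25 and 7.19) and, among members with UMIs on both sides, Hist1h3c in plasma cells (6.75). The difference between classes in these changes was not tested. Hist1h2af, at 17.7 to 30.5 CPM in cycling plasma cells, had 0 UMIs in other plasma cells of all 4 libraries, where 3 counts as a floor allow up to 0.240 to 1.31 CPM.

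Hist1h2bc, which did not pass over all cells, passed in 2 of the 3 classes. It was higher in cycling T cells at 48.9, 17.5, 42.8 and 18.1 CPM against 8.28, 4.43, 9.49 and 6.77 CPM in other T cells (2.44, SE 0.16, adjusted p = 9e-09) and in cycling plasma cells (0.84, SE 0.19, adjusted p = 0.0038). In macrophages its log2 fold change was 0.03 (SE 0.22, adjusted p = 0.96). Hist1h1c was likewise higher in T cells (2.03, SE 0.19) and plasma cells (0.36, SE 0.09, adjusted p = 0.0075), with 0.18 (SE 0.18, adjusted p = 0.61) in macrophages. Hist3h2a was lower in cycling macrophages (-0.65, SE 0.17, adjusted p = 0.025), at 21.7, 19.2, 16.1 and 40.2 CPM against 39.3, 31.3, 32.5 and 39 CPM, but not lower in Ribavirin-OVA, and it no longer passed without the Vehicle, the Vehicle-OVA or the Ribavirin library. In T cells it gave -0.07 (adjusted p = 0.85) and in plasma cells 0.19 (adjusted p = 0.41). Hist2h2be passed within none of the 3 classes, with 1.08 in T cells (adjusted p = 0.0502), -0.25 in macrophages (0.80) and -0.46 in plasma cells (0.52). Hist4h4 was higher in cycling T cells (1.43, SE 0.41, adjusted p = 0.010) and passed in neither other class. Of neutrophils 0.24 to 0.65% were cycling and of plasma cells 16.5 to 51.6%, so contrasts over all cells also mix classes. The call behind these shares was not scaled to depth, and the depth of the classes differs.

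Within cycling cells, the cells were next divided by whether they held more UMIs of 20 S phase genes or of 20 G2/M genes, none of them a histone gene. No member was higher in S-leaning cells (6.24% of all genes were), and 41 of 59 were lower (5.84%), with a median log2 fold change of -1.33 against -0.01 over all genes. The S phase list itself was higher in 15 of 20 genes and the G2/M list lower in 20 of 20, as the division used them. By edgeR at an unadjusted p under 0.05 and by DESeq2 the count of members higher was also 0, and all 59 had a log2 fold change below 0. Without the library as a block 6 of 54 members were lower.

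Hist1h2ab gave 84.9, 43.2, 99.6 and 43.6 CPM in S-leaning cells and 289, 140, 350 and 201 CPM in G2/M-leaning cells, so that every G2/M-leaning library was above every S-leaning one (-1.83, SE 0.09, adjusted p = 9.5e-05). Hist1h4d was at 174, 71.6, 187 and 63.5 CPM against 597, 231, 554 and 257 CPM (-1.72, SE 0.08). The linker gene Hist1h1b was at 761, 202, 829 and 191 CPM against 1621, 416, 1378 and 402 CPM, a smaller difference of -0.94 (SE 0.08, adjusted p = 0.00083) in which the groups overlapped although each library moved the same way. Others with a large difference were Hist1h2bg (-2.0), Hist1h2bb (-1.88), Hist1h2af (-1.82), Hist1h2bf (-1.77, not past the threshold without Vehicle or without Ribavirin), Hist3h2ba (-1.73), Hist1h3f (-1.72) and Hist1h4h (-1.65), and the identifier ENSMUSG00000105827 of Hist2h2bb gave -1.71. Hist1h3a did not pass, at 7.81 to 18.0 CPM in S-leaning cells against 5.81 to 22.0 CPM (-0.08, SE 0.14).

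The same direction was seen inside the classes, as summed member levels. T cells held 5152, 1087, 5073 and 885 CPM of member UMIs when S-leaning and 10499, 2768, 8479 and 5872 CPM when G2/M-leaning, and plasma cells held 2667, 1986, 2284 and 2448 CPM against 4841, 3349, 6719 and 4448 CPM. The G2/M-leaning sets were small in places, with 12 T cells in Vehicle-OVA and 9 macrophages in Ribavirin-OVA. The median depth of the sets was 13568 to 19516 UMIs when S-leaning and 14392.5 to 24603 when G2/M-leaning. A level of oligo-dT-primed RNA is not a rate of transcription, and cells in S phase that carry little Mki67 and Top2a are not in these sets.

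**Figure D3:**
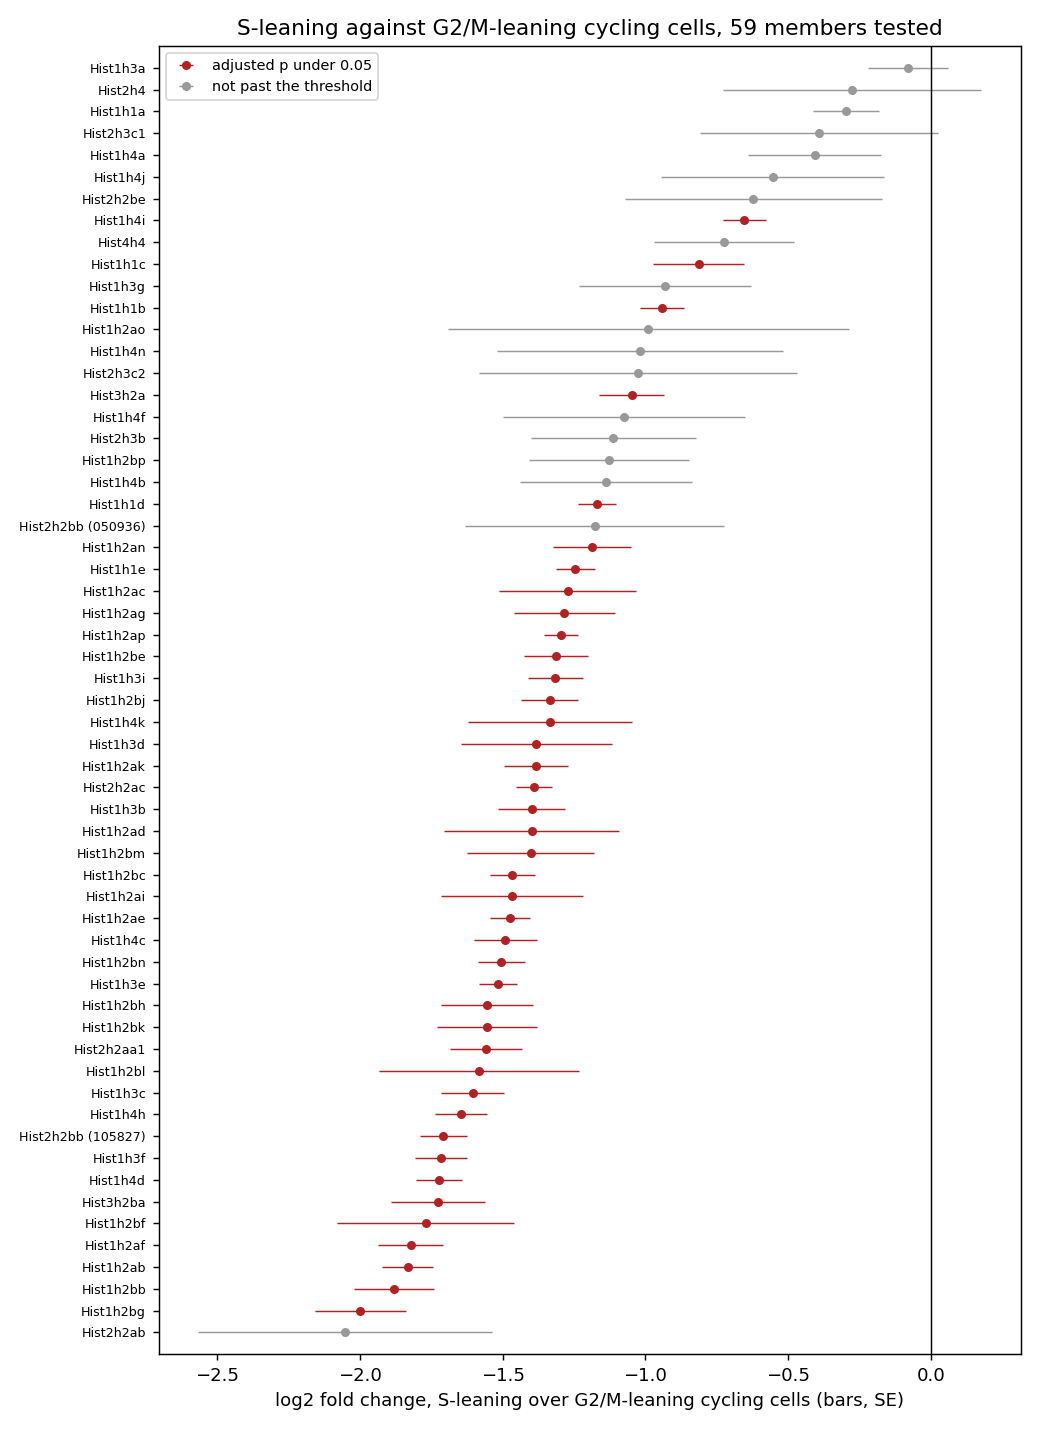
Log2 fold change of each member in S-leaning over G2/M-leaning cycling cells (horizontal axis, bars SE), from edgeR over 4 libraries with the library as a block, with members past an adjusted p of 0.05 in red. All 59 members lie below 0, from -0.08 (Hist1h3a) to -2.05 (Hist2h2ab, adjusted p = 0.053), and 41 pass.

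Outside the cycle, members differed by cell class. In 1 fit over the other cells of 6 classes, 34 members were among the 12636 genes tested, each class being set against the mean of the other 5. Plasma cells had 29 members higher and 0 lower, where 32.6% of all genes were higher and 34% lower, with a member median of 2.26 on the log2 scale against -0.06 over all genes. The other classes had more members lower than higher: neutrophils 8 higher and 11 lower (36.8 and 36.2% of all genes), macrophages 2 and 18 (33.1 and 24.8%), monocytes 2 and 6 (25.5 and 27.7%), plasmacytoid dendritic cells (pDC) 5 and 14 (27.9 and 31.6%) and T cells 6 and 13 (33.8 and 34.1%). The counts lower in neutrophils and T cells were near the background. The mean that each of these 5 classes was set against includes plasma cells, so the rise there lowers their values by construction. Its part in the counts lower was not tested. In plasma cells the count lower was also 0 by edgeR at an unadjusted p under 0.05 and by DESeq2.

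Plasma cells, which secrete antibody and arise from dividing precursors, held 649, 538, 789 and 601 CPM of member UMIs outside the cycle. T cells held 246, 124, 266 and 115 CPM, macrophages 216, 178, 241 and 261 CPM, and neutrophils 555, 232, 569 and 555 CPM, so plasma cells stood above these 3 classes in every library. Leading the rise were the linker gene Hist1h1a (4.42, SE 0.39), the H2B gene Hist1h2bj (4.07, SE 0.23) and the H2A gene Hist1h2ac (4.01, SE 0.36), all at low levels. Hist1h2bj was at 8.66, 6.98, 11 and 5.73 CPM in plasma cells and at most 2.31 CPM in any library of the other 5 classes. In these cells the S phase list summed to 130 to 219 CPM, against 388 to 679 CPM in other T cells and 98.3 to 165 CPM in neutrophils. Mki67 plus Top2a summed to 38.1 to 46.1 CPM in plasma cells, below T cells (54.5 to 66.7 CPM) and above neutrophils, macrophages, monocytes and pDC (9.79 to 16.7, 19.5 to 21.4, 9.84 to 21.6 and 8.35 to 17.8 CPM), and the part of remaining cycling cells in the member levels was not tested. Other cells hold at most 2 UMIs of Mki67 plus Top2a by definition, which caps the CPM more tightly in deep cells. The lower value in plasma cells than in T cells therefore cannot show fewer remaining cycling cells. With 0 UMIs of every cycle gene required, 18 members could be tested in plasma cells, of which 13 were higher and 0 lower. Plasma cells were also the deepest or next to deepest of the 6 classes in each library (median 9626.5 to 14062.5 UMIs), and 16.5 to 51.6% of the class was cycling.

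Neutrophils, short-lived cells that do not divide after maturation, carried a short list of members at high level. Hist1h2bc was at 181, 78.5, 211 and 172 CPM (3.58 above the mean of the other classes, SE 0.12, adjusted p = 1.6e-16), compared with 4.43 to 9.49 CPM in T cells. A UMI of Hist1h2bc was seen in 31.1% of Vehicle neutrophils at a median of 2327 UMIs and in 3.14% of Vehicle T cells at a median of 4121 UMIs, and after thinning to 2000 UMIs in 24.9 and 1.47% (2178 and 109 shallower cells left out). Hist1h2be was at 30.8, 19.4, 29.7 and 30.9 CPM (3.49, SE 0.19) and Hist1h4i at 47.3, 29.9, 43.4 and 61.4 CPM (2.97, SE 0.15). Hist1h1c, at 149, 76.4, 158 and 239 CPM, was also higher (1.85, SE 0.17). Hist3h2ba (-1.68) and Hist1h3a (-1.49) were among the members lower in neutrophils. Cells with the immature neutrophil markers, not in the fit, held Hist1h2be at 0.998 to 6.51 CPM and Hist1h4i at 4.60 to 7.59 CPM, below every neutrophil library, and Hist1h2bc at 51.3, 92.8, 92.0 and 87.7 CPM.

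The pDC, interferon-producing cells, were led by another set among the 6 classes. Hist3h2ba, an H2B gene, was at 34.4, 22.8, 44.6 and 31.6 CPM (2.88, SE 0.16, adjusted p = 1.1e-12) and at most 15.6 CPM in any library of the other 5 classes. Epithelial cells, not in the fit, held Hist3h2ba at 13.3, 22.7, 7.17 and 7.49 CPM, close to pDC in Vehicle-OVA. Hist2h2be was at 9.50, 21.1, 5.93 and 28.8 CPM (2.50, SE 0.21), higher in the OVA libraries, while epithelial cells, not in the fit, held it at 8.06 to 39.3 CPM, above pDC in 3 of 4 libraries. Hist4h4 was at 9.16, 4.45, 12.7 and 4.32 CPM (1.61, SE 0.34), lower in the OVA libraries. Hist1h1a had 0 UMIs in pDC of all libraries, where 3 counts as a floor allow up to 0.518 to 1.67 CPM.

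T cells were led by Hist2h2bb under ENSMUSG00000105827, at 9.19, 2.21, 8.97 and 2.26 CPM (2.36, SE 0.28), followed by Hist1h1a (1.19, SE 0.52, adjusted p = 0.05) and the H4 gene Hist2h4 (1.14, SE 0.23), while Hist1h2bc was lowest there (-2.59, SE 0.18). In macrophages Hist1h2bc (0.91, SE 0.14) and Hist3h2a (0.43, SE 0.10) were higher, and in monocytes Hist1h1b (0.76, SE 0.26) and Hist3h2a (0.28, SE 0.12). Of these calls, Hist1h1a in T cells no longer passed without any one library, Hist3h2a in macrophages without Ribavirin-OVA, Hist1h1b in monocytes without either OVA library, and Hist3h2a in monocytes without Vehicle or without Ribavirin. With 0 UMIs of every cycle gene required, no member was higher in monocytes, and Hist2h4 in T cells did not pass (0.81, edgeR adjusted p = 0.13). The rises of Hist3h2a were larger in pDC (0.89, SE 0.11) and plasma cells (0.80, SE 0.11) than in macrophages and monocytes. Plasma cells also had a larger rise of Hist1h2bc (1.76, SE 0.13) than macrophages and of Hist1h1b (3.01, SE 0.20) than monocytes. Against T cells, plasma cells had larger rises of Hist1h1a (4.42, SE 0.39) and Hist2h4 (3.71, SE 0.20). That of Hist2h2bb under ENSMUSG00000105827 was smaller in plasma cells (1.28, SE 0.36). B cells, not in the fit, held Hist3h2a at 76.4, 38.8, 108 and 37.1 CPM. In epithelial cells, also not in the fit, Hist1h2bc was at 160, 134, 122 and 178 CPM, in the range of neutrophils.

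**Figure D4:**
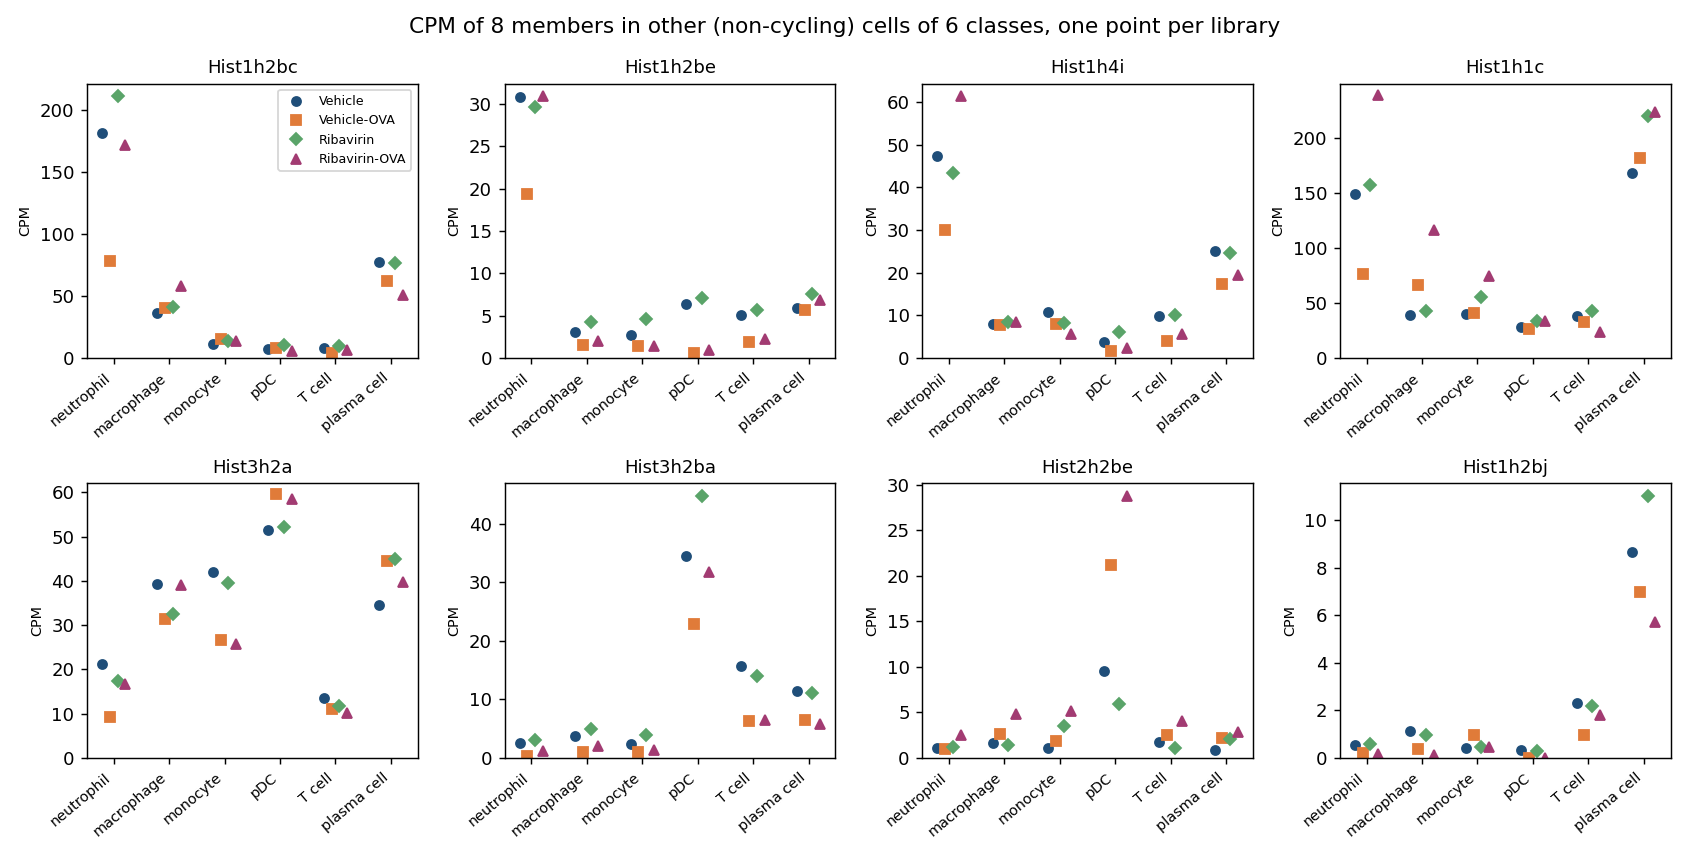
Level of 8 members in other cells (0 to 2 UMIs of Mki67 plus Top2a) of each class, in CPM, with 1 point per library. Of the 6 classes drawn, Hist1h2bc stands highest in neutrophils (78.5 to 211 CPM), Hist1h1c in plasma cells (168 to 224 CPM) and in neutrophils, and Hist3h2ba in pDC (22.8 to 44.6 CPM).

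For the treatments, with 1 library a group, ratios between libraries are given with exact conditional binomial 95% intervals that cover counting error only. A gene counted as past 2-fold with a log2 ratio of 1 or more in size after adding 1 CPM to both sides, among genes with at least 50 UMIs in the class. Each library enters 2 of the 4 ratios, so the ratios are not independent. In cycling cells the ratios were chosen after values had been seen.

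In neutrophils outside the cycle, 13 of 22 members were past 2-fold lower in Vehicle-OVA than in Vehicle, where 28.7% of all genes were (6.35% higher), with a member median of -1.08 and an all-gene median of -0.58 on the log2 scale. In Ribavirin-OVA over Ribavirin 7 of 22 were lower (2.78% of all genes) and none was higher (6.69%), with medians of -0.48 and 0.28. The linker gene Hist1h1e went from 44.8 to 2.97 CPM in the Vehicle pair, 15.1-fold lower (12.3 to 18.8), and from 37.8 to 3.62 CPM in the Ribavirin pair, 10.5-fold lower (6.98 to 16.4). Hist1h4d went from 24.2 to 1.39 CPM and from 17.3 to 3.47 CPM, and Hist1h1b from 7.96 to 0.534 CPM in the Vehicle pair and from 6.11 to 1.36 CPM, on 9 UMIs with OVA, in the Ribavirin pair (4.51-fold lower, 2.30 to 10.1). Both OVA libraries were thus below both libraries without OVA for these genes. Relative to the all-gene median, 8 of 22 members were past 2-fold in either direction in the Vehicle pair.

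Hist1h1e was again among the lower members in macrophages and T cells outside the cycle. In macrophages 9 of 27 members were past 2-fold lower in Vehicle-OVA than in Vehicle (3.66% of all genes) and none higher (8.17%), and 7 of 27 were lower (3.18%) and 3 higher (6.63%) in Ribavirin-OVA over Ribavirin. Hist1h1e there went from 23.5 to 5.22 CPM, 4.50-fold lower (3.64 to 5.62), and from 33.1 to 5.18 CPM, 6.39-fold lower (5.09 to 8.12). Among T cells 9 of 26 were lower (3.63%) in the Vehicle pair, with none higher (12.2%), and 12 of 26 were lower (3.67%) and 1 higher (9.64%) in the Ribavirin pair, with Hist1h1e going from 36.1 to 7.27 CPM and from 40.7 to 7.22 CPM. Relative to the all-gene median, 18 of 26 were past 2-fold in either direction in the Vehicle pair of T cells. Hist1h3e, an H3 gene, went from 4.31 to 0.824 CPM and from 6.23 to 0.448 CPM in macrophages. Hist1h1c, the other abundant linker gene, differed from this: in macrophages it went from 39.5 to 66.1 CPM with OVA in the Vehicle pair, 1.67-fold higher, and from 42.9 to 117 CPM in the Ribavirin pair, 2.72-fold higher (2.53 to 2.93). In neutrophils it went down in the Vehicle pair, from 149 to 76.4 CPM, and up in the Ribavirin pair, from 158 to 239 CPM.

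Members without a poly(A) signal had the lower medians in these OVA ratios of other cells. In neutrophils their median log2 ratio was -1.65 (11 genes) against -0.64 for the 11 with a signal in Vehicle-OVA over Vehicle, and -0.91 against 0.27 in Ribavirin-OVA over Ribavirin. In macrophages the medians were -0.66 against -0.37 and -0.85 against -0.09, and in T cells -0.84 against -0.31 and -1.11 against -0.75. In cycling T cells the order was the opposite in the Ribavirin pair, with -1.18 without a signal against -1.41 with one. OVA and the share of ribosomal protein UMIs separated the libraries in the same way, and how far library preparation moves with the treatments cannot be told apart with 1 library a group.

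**Figure D5:**
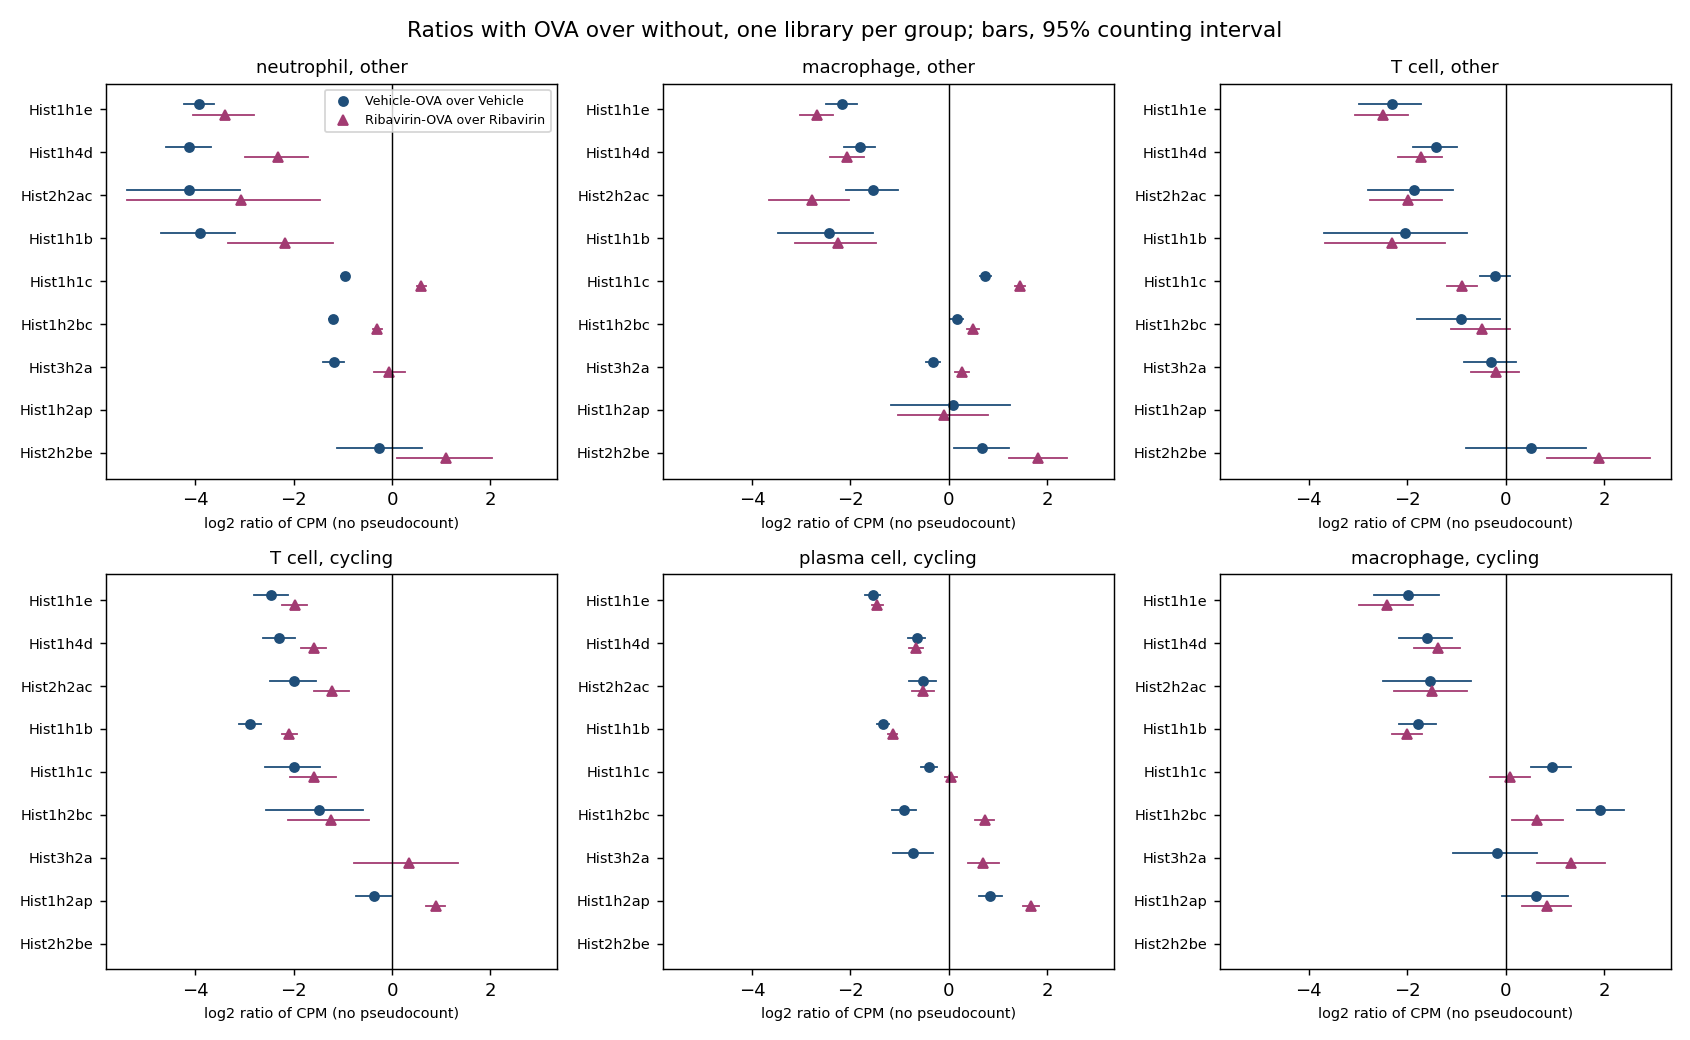
Log2 ratio of CPM with OVA to CPM without it (horizontal axis, no pseudocount) for 9 members in other cells of neutrophils, macrophages and T cells and in cycling T cells, plasma cells and macrophages, with points for the Vehicle pair and the Ribavirin pair and bars for exact 95% intervals of counting error; genes with 0 UMIs on a side or under 50 UMIs are not drawn. Hist1h1e and Hist1h4d lie below 0 in every panel and both pairs, while Hist1h1c lies on both sides of 0.

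In cycling T cells the difference with OVA covered most members. In Vehicle-OVA over Vehicle 41 of 47 members were past 2-fold lower (4.92% of all genes) and 0 higher (20.5%), with a member median of -2.27 against 0.41 over all genes, and in Ribavirin-OVA over Ribavirin 32 of 47 were lower (5.73%) and 0 higher (19.2%), with -1.21 against 0.39. Hist1h1b was 7.37-fold lower (6.36 to 8.59) in Vehicle-OVA and 4.25-fold lower (3.82 to 4.74) in Ribavirin-OVA. Hist1h2bg, Hist1h2bf and Hist3h2a had 108, 72 and 57 UMIs in Vehicle and 0 in Vehicle-OVA. With 3 UMIs as a floor there, their levels were at least 4.18-, 2.79- and 2.21-fold lower. The UMI filter looks at the libraries together, so a member can pass it through the libraries where it is high. A count of 0 among the 49 cells of Vehicle-OVA, against 392 in Vehicle, is then readily called lower. All genes met the same filter, but its part in the counts past 2-fold in cycling T cells was not tested. In the Ribavirin pair the largest falls were those of the H2B genes Hist1h2bh, Hist1h2bn and Hist1h2bp, with log2 ratios of -3.29, -2.32 and -2.26. Members summed to 7961, 1624, 6783 and 2695 CPM in cycling T cells, whereas the G2/M list summed to 4246, 2327, 3364 and 3067 CPM and the S phase list to 2635, 3419, 2624 and 2231 CPM. S-leaning cells made up 37 of 49 cycling T cells in Vehicle-OVA and 46 of 66 in Ribavirin-OVA, compared with 181 of 392 in Vehicle and 135 of 257 in Ribavirin, and the part of this in the ratios was not tested.

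In cycling plasma cells fewer members were past 2-fold. In Vehicle-OVA over Vehicle 5 of 47 members were past 2-fold lower (2.8% of all genes) and 0 higher (13.6%), and in Ribavirin-OVA over Ribavirin 5 were lower (3.44%) and 3 higher (16.7%). Hist1h1e went from 509 to 174 CPM and from 523 to 190 CPM, while the H2A gene Hist1h2ap went from 74.6 to 134 CPM and from 150 to 476 CPM, 3.18-fold higher (2.85 to 3.56). Hist1h2ag (4.20-fold) and Hist1h2bk (3.51-fold) were the other members with the largest fall in the Vehicle pair, and Hist2h2aa1 (2.35-fold) and Hist1h2ai (2.44-fold) were the others past 2-fold higher in the Ribavirin pair. Relative to the all-gene median, 15 and 22 members were past 2-fold in the Vehicle and the Ribavirin pair. In cycling macrophages 11 of 25 were lower (6.51%) and 1, Hist1h2bc, was higher (10.7%) in the Vehicle pair, and 14 were lower (4.38%) and 1, Hist3h2a, was higher (9.39%) in the Ribavirin pair.

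Ribavirin against Vehicle, without OVA, moved almost none of the members past 2-fold. In neutrophils, macrophages and T cells outside the cycle 0 of 22, 27 and 26 were past 2-fold in either direction, against 1.16, 0.611 and 0.799% of all genes higher and 0.122, 0.057 and 0.0628% lower. Hist1h1e was at 44.8 and 37.8 CPM in neutrophils of Vehicle and Ribavirin and at 36.1 and 40.7 CPM in T cells. In cycling cells of the 3 classes 1 member of the T cell set, Hist1h2bf, was past 2-fold lower (0.281% of all genes). With OVA, Ribavirin-OVA over Vehicle-OVA had 3 of 22 members past 2-fold higher in neutrophils (29.1% of all genes) and 0 lower (2.55%). In macrophages 0 of 27 (0.994% of all genes higher, 0.839% lower) and in T cells 0 of 26 (1.92 and 1.56%) were past 2-fold. The 3 of the neutrophils were Hist1h1c, at 239 against 76.4 CPM (3.13-fold, 2.94 to 3.33), Hist1h2bc (2.19-fold) and Hist1h4i (2.05-fold), and 0 were past 2-fold relative to the all-gene median of 0.70. In cycling T cells 21 of 47 were higher (4.61%) and 1 lower (4.09%), among them Hist1h2ap at 379 against 129 CPM, and in cycling plasma cells 6 of 47 were higher (1.78%), led by Hist1h2ap at 3.55-fold (3.16 to 3.99).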

How the data were processed

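Single-cell RNA-seq of CD45+ nasal mucosa cells gave 4 libraries. The values are UMI counts per gene and barcode that the authors deposited for each library without normalization, and the submitters' processing notes name Cell Ranger 5.0.0 and mm10. The annotation behind the counts is not given in the sources used here.

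Cells were left out below 200 genes or 500 UMIs, or with a mitochondrial share of 10% or more. CPM are UMIs of a gene in a cell set scaled to a fixed total of UMIs. No doublet caller was run. A class was given to a cell with at least 3 UMIs of its 5 markers from at least 2 of them, with a ratio of 3 to the next class, and cells with markers of 2 classes (mixed, 11.5 to 17.3% of the cells of a library) were left out of class comparisons. Cycling cells had at least 3 UMIs of Mki67 plus Top2a.

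UMIs were summed per library and cell set and tested with edgeR 4.0.16 (quasi-likelihood, TMM, filterByExpr, library as a block, R 4.3.3), with Benjamini-Hochberg adjustment over all genes tested and a threshold of 0.05. The library pairs the sums because both states come from the same library. DESeq2 1.42.0, other cell filters and cycling thresholds, no block and leaving out each library were tried as alternatives. Shares and ratios (Python 3.11.15) carry exact 95% intervals that cover counting error only, and 3 counts were the floor. Tested on simulated data for the comparison of cycling with other cells (16277 genes), the fit recovered 56.6% of genes changed 2-fold and 78.6% of those changed 4-fold, with 6.34% false among the calls.

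The genes named are the 10 members with most UMIs outside cycling cells, the 5 with the highest and the 5 with the lowest share outside among those with at least 100 UMIs, and the largest called changes of each comparison (up to 10 a direction between cell states, 3 per class and 3 a direction per ratio), with values given for a part of these lists. The members and lists were chosen with earlier results of these data known, and the ratios in cycling cells, and values of members such as Hist1h3a, Hist1h4h and Hist1h4j, were chosen after values were seen. Reads of near-identical histone genes and overlapping gene models are uncertain.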

Additional observations from a re-analysis of the deposited data

How the results depend on the processing

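The count of members higher in cycling cells stayed at 55 without any one library, while the count lower, 2, ranged from 0 to 1. It was 1 with at least 5 UMIs of Mki67 plus Top2a, 1 without mixed-marker and high-UMI cells and 0 without the library block, and 3 with other cells limited to those with 0 UMIs of all cycle genes (where 48 of 60 were higher), with no filter on cells, by DESeq2 and with no filter on low counts. Without the block, 20 members were higher and 0 lower in cycling macrophages, 6 were lower in S-leaning cells, and the classes had 3 (neutrophil), 5 (macrophage), 5 (pDC) and 7 (T cell) members lower and 0 (monocyte) and 2 (T cell) higher. With other cells limited to those with 0 UMIs of all cycle genes, where 18 members could be tested, 6 were lower in neutrophils, 3 in macrophages, 6 in pDC and 8 in T cells, and 0 were higher in monocytes, 3 in pDC, 1 in T cells and 13 in plasma cells. Without 1 library at a time the counts ran from 43 to 52 higher in cycling T cells, 37 to 48 in plasma cells, 28 to 36 higher and 0 to 1 lower in macrophages, and 31 to 40 lower in S-leaning cells. For the classes they ran from 7 to 9 higher and 8 to 12 lower in neutrophils, 1 to 2 and 13 to 16 in macrophages, 1 and 4 to 6 in monocytes, 4 to 5 and 9 to 12 in pDC, 4 to 6 and 9 to 12 in T cells, and 22 to 29 and 0 to 1 in plasma cells. The share of member UMIs outside cycling cells was 35.3% with at least 1 UMI of Mki67 plus Top2a, 44.5% with at least 5, 43.7% with no filter on cells and 40.6% with a mitochondrial limit of 5%.

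Members near 0 changed sign in the comparison of cycling with other cells: Hist1h2bc was at -0.60 with the strict other cells and -0.14 without mixed-marker and high-UMI cells, Hist4h4 at -0.011 with the strict other cells, and Hist3h2a at 0.036 with at least 5 UMIs and between -0.32 and 0.092 without 1 library at a time (0.01, 0.092 and 0.02 without Vehicle, Vehicle-OVA and Ribavirin). The cause of these moves was not tested.

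Counts of members past 2-fold fell with a pseudocount of 5 CPM, which shrinks low genes by construction: in the Vehicle pair to 4 in neutrophils, 2 in macrophages and 3 in T cells, and in the Ribavirin pair to 2, 4 and 3. For Ribavirin-OVA over Vehicle-OVA they were 11 in cycling T cells, 3 in cycling plasma cells and 0 in cycling macrophages, and 0 for Ribavirin over Vehicle in cycling T cells. Relative to the median of all genes the counts were 8 (neutrophils) and 18 (T cells) in the Vehicle pair, 0 in neutrophils for Ribavirin-OVA over Vehicle-OVA, and 15 and 22 in the pairs of cycling plasma cells. With at least 200 UMIs per gene, and so fewer genes, they were 6 and 4 in the 2 pairs of neutrophils and 7 in the Ribavirin pair of T cells, and a mitochondrial limit of 5% gave 1 in T cells for Ribavirin-OVA over Vehicle-OVA. Class cells with no marker UMI of another class were not run, since such cycling cells were missing in at least 1 library of each class.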
